A study of Mus musculus with 6 samples.

Results

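The genes described here are 9 enzymes and regulators of progesterone synthesis in the ovarian follicle, *Star*, *Cyp11a1*, *Fdx1*, *Fdxr*, *Hsd3b1*, *Por*, *Akr1c18*, *Nr5a1* and *Nr5a2*. They were taken by gene name from a table of 16300 genes, and all 9 had a row. The table came from RNA-seq of granulosa cells (GCs), the somatic cells around the oocyte, in 3 control libraries and 3 libraries treated for 24 h with 25 nM dihydrotestosterone (DHT), a potent androgen that aromatase does not act on. Both groups were wild type C57BL/6J mice aged 8 to 9 weeks, and the controls received medium without DHT. According to the study's methods the cells were primary cultures, and each library of a group was made from a separate pool of cells from several animals, so the p-values measure the spread between pools rather than between animals. The labels give GCs as the cell type but describe RNA extraction from whole ovary.

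Progesterone is made from cholesterol through pregnenolone. StAR brings cholesterol to the inner mitochondrial membrane, where CYP11A1 cuts its side chain to give pregnenolone, with electrons passed from NADPH through ferredoxin reductase (FDXR) and ferredoxin (FDX1). HSD3B1 then turns pregnenolone into progesterone, and AKR1C18 inactivates progesterone by reducing it at carbon 20. POR feeds electrons to the P450 enzymes of the endoplasmic reticulum, and the nuclear receptors SF-1 (*Nr5a1*) and LRH-1 (*Nr5a2*) bind promoters of many steroidogenic genes. GCs make mostly estrogen before ovulation and turn into progesterone-producing luteal cells after it.

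The largest responders were the genes of the enzymatic core. *Hsd3b1* rose 1.52-fold and *Cyp11a1* 1.40-fold, and the electron carriers *Fdxr* and *Fdx1* rose 1.25-fold and 1.22-fold. *Star*, *Nr5a1*, *Nr5a2*, *Akr1c18* and *Por* did not pass the test, with values given in turn. Thus 4 of 9 genes were called higher at an adjusted p of at most 0.05 (limma with Benjamini-Hochberg adjustment over 16292 genes), where 6.52% of all genes were called higher. Because the 9 genes were chosen with earlier results of these data known, the comparison with all genes is a description only. The count was 3 of 9 without control replicate 1, control replicate 2 or DHT replicate 1, and 1 of 9 (*Hsd3b1*) without DHT replicate 2, without DHT replicate 3 or without the intensity trend. Of the 9 genes, 0 were called lower by limma, edgeR or DESeq2, against 4.66% of all genes by limma, and 1 (*Por*) was lower at an unadjusted p below 0.05. Their median log2 fold change was 0.19, beside -0.01 for all genes tested. By the study's stricter criterion, which adds an absolute log2 fold change above 1, 0 of the 9 were called by limma, against 1.31% of all genes, since no member changed by that much. Every DHT library exceeded every control library for 4 genes, a pattern found in 15.9% of all genes, and every DHT library was below every control library for 1 gene, *Por*, a pattern found in 14.7% of all genes.

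**Figure D1:**
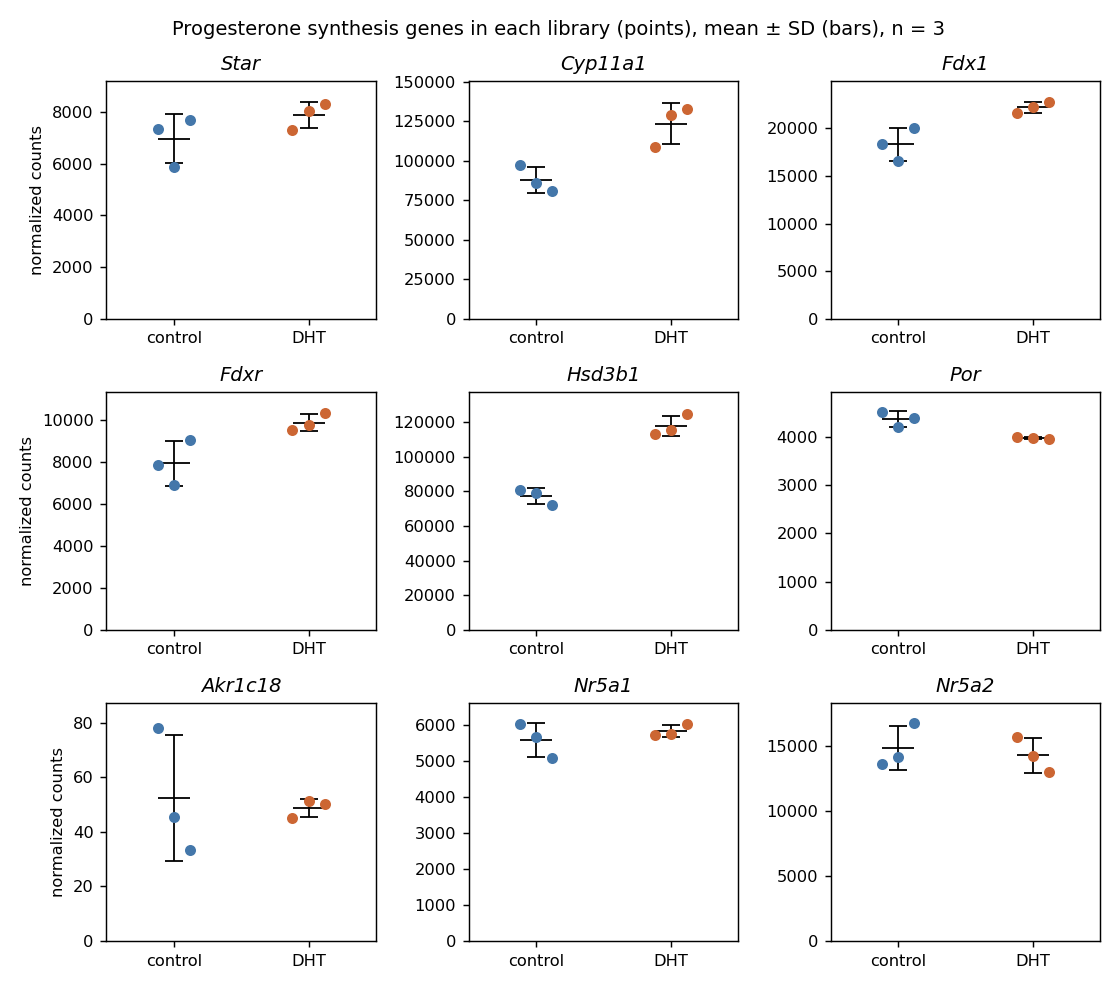
Normalized counts (vertical axes, each from 0) of the 9 genes in 3 control and 3 DHT libraries, with points for libraries and bars for the mean ± SD. The groups stand apart for *Cyp11a1*, *Fdx1*, *Fdxr* and *Hsd3b1*, with DHT above, and for *Por*, with DHT below.

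The upstream sequence of *Hsd3b1*, the member with the largest fold change, is shown first, together with the one stretch near a start of *Cyp11a1* that held the nuclear receptor motif AGGTCA. Sequences are those of RefSeq on GRCm38.p6, read 5′ to 3′ on the strand of the gene. Promoter entries in RefSeq were found for 7 of the 9 genes, with 9 start sites among them. For *Hsd3b1* the 250 bases before the start lie at chr3:98859795-98860044 on the minus strand and overlap no annotated exon, and the capitals mark the 6 letters of a GATA motif (AGATAA on the other strand).
Hsd3b1: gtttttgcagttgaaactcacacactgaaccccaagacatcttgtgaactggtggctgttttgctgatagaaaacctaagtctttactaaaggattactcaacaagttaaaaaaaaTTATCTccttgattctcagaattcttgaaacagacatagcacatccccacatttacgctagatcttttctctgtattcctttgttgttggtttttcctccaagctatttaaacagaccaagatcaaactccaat
For *Cyp11a1* the 30 bases at chr9:58014912-58014941 on the plus strand fall in the 5′ UTR of an annotated transcript that starts slightly upstream, and the capitals mark the motif, which begins 28 bases before the RefSeq start.
Cyp11a1: gaggaaggggggAGGTCAccgctccatcag

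Motifs were searched on both strands in the 250 bases before each start. The nuclear receptor motif AGGTCA lay before 1 start of *Cyp11a1* and 1 start of *Nr5a2*, and it occurs in 14% of 32851 mouse promoters. The extended NR5A site CAAGGNCA, found in 5.53% of promoters, was in none of the 9 windows, and neither was the cAMP response element TGACGTCA, found in 1.55%. The androgen receptor motif TGTTCT, found in 16.1% of promoters, occurred before both starts of *Nr5a2*, a gene whose level did not pass the test. The GATA motif AGATAA, found in 9.99%, occurred before *Hsd3b1* and *Nr5a2*. A match of letters describes the sequence and does not mark a bound site.

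*Star* (ENSMUSG00000031574, chr8:25806555-25815982 on the plus strand of GRCm38) encodes the cholesterol carrier whose action sets the acute rate of steroid synthesis. Its normalized counts, which are reads divided by a size factor for library depth, were 7323, 5877 and 7691 in the control libraries and 7310, 8021 and 8298 in the DHT libraries. One control library was low and the others lay within the DHT range, so the groups overlapped. The log2 fold change was 0.19 (SE 0.09, 95% confidence interval -0.02 to 0.40, n = 3 per group), and the adjusted p was 0.25 by limma. The interval corresponds to folds from 0.983 to 1.32. Leaving out control replicate 2, the low one, gave a log2 fold change of 0.07, and the range over all left-out libraries was 0.07 to 0.26.

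*Cyp11a1* (ENSMUSG00000032323, chr9:58006411-58027023, plus strand) encodes the side-chain cleavage enzyme. Normalized counts were 97025, 85893 and 80557 in control and 108458, 128662 and 132928 in DHT. Every DHT library was above every control library, with DHT replicate 1 nearest to the controls. The means were 87825 ± 8400 and 123349 ± 13100 (SD, n = 3 each), a log2 difference of 0.49 (SE 0.09, 95% confidence interval 0.28 to 0.70) with an adjusted p of 0.01 by limma. Without DHT replicate 2 or DHT replicate 3 the log2 difference was 0.46 or 0.43, and the adjusted p by limma was 0.052 in both cases. The exons of *Cyp11a1* share 145 bases, 3.02% of their length, with the noncoding gene *Gm17322* on the same strand. *Gm17322* had 209 to 282 normalized counts per library and a log2 fold change of -0.17 (limma, adjusted p = 0.41).

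*Hsd3b1* (ENSMUSG00000027871, chr3:98852194-98859794, minus strand) encodes the 3β-hydroxysteroid dehydrogenase that makes progesterone. Its normalized counts were 80918, 79142 and 72329 in control libraries and 113288, 115385 and 124520 in DHT libraries. The lowest DHT library was far above the highest control. The means were 77463 ± 4530 and 117731 ± 5970 (SD, n = 3 each), and the log2 fold change was 0.60 (SE 0.06, 95% confidence interval 0.46 to 0.74, limma adjusted p = 0.00046). With each library left out in turn it stayed between 0.56 and 0.64 and kept its call in 6 of 6 fits. Quantile normalization, which forces the same distribution on every library, lowered the value to 0.41.

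*Fdx1* (ENSMUSG00000032051, chr9:51943306-51963556, minus strand) and *Fdxr* (ENSMUSG00000018861, chr11:115268024-115277050, minus strand) encode the chain that supplies CYP11A1 with electrons. *Fdx1* had 18342, 16587 and 20067 normalized counts in control and 21597, 22235 and 22811 in DHT. *Fdxr* had 7818, 6885 and 9025 in control and 9515, 9728 and 10292 in DHT. In both genes control replicate 2 was lowest, control replicate 3 was the highest control and DHT replicate 3 the highest of all, and the groups did not overlap. The log2 fold change was 0.28 for *Fdx1* (SE 0.06, 95% confidence interval 0.14 to 0.43, limma adjusted p = 0.024). For *Fdxr* it was 0.32 (SE 0.08, 95% confidence interval 0.13 to 0.51, limma adjusted p = 0.04). The *Fdx1* call was lost without DHT replicate 2 (0.28, limma adjusted p = 0.085) and without DHT replicate 3 (0.26, limma adjusted p = 0.1). The *Fdxr* call held in 1 of 6 fits that left out a library, the one without control replicate 3, and adjusted p values by limma in the other fits reached 0.15 with log2 values from 0.23 to 0.35.

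*Por* (ENSMUSG00000005514, chr5:135670033-135735326, plus strand) encodes the microsomal P450 reductase. It had 4528, 4205 and 4389 normalized counts in control and 3990, 3980 and 3959 in DHT. All DHT libraries lay below all controls and within a very narrow range, with a coefficient of variation of 0.39% against 3.7% in control. The log2 fold change was -0.14 (SE 0.04, 95% confidence interval -0.22 to -0.05), and the adjusted p of 0.052 by limma was just past the threshold. *Por* passed it with quantile normalization (-0.15, limma adjusted p = 0.038), among genes with a mean of at least 50 (-0.14, limma adjusted p = 0.043) and without control replicate 2 (-0.17, limma adjusted p = 0.04). It did not pass in the other 5 fits with a library left out, where the adjusted p by limma reached 0.16, nor without the intensity trend (limma adjusted p = 0.15), nor by edgeR or DESeq2.

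*Akr1c18* (ENSMUSG00000021214, chr13:4132615-4150654, minus strand) encodes the 20α-hydroxysteroid dehydrogenase that marks the regressing corpus luteum. It was scarce, with 78.2, 45.5 and 33.4 normalized counts in control and 45.0, 51.3 and 50.1 in DHT. The controls spanned the whole DHT range. The log2 fold change was -0.01 (SE 0.29, 95% confidence interval -0.66 to 0.63, limma adjusted p = 0.98), so the test bounds a difference of either sign only widely. The coefficient of variation was 44.3% in control and 6.8% in DHT.

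*Nr5a1* (ENSMUSG00000026751, chr2:38692656-38714542, minus strand) encodes SF-1. Its normalized counts were 6022, 5679 and 5081 in control and 5725, 5753 and 6043 in DHT, with overlapping groups. The log2 fold change was 0.07 (SE 0.06, 95% confidence interval -0.07 to 0.20, limma adjusted p = 0.55). *Nr5a2* (ENSMUSG00000026398, chr1:136842571-136960448, minus strand) encodes LRH-1. Its counts were 13631, 14135 and 16735 in control and 15668, 14213 and 12984 in DHT, again overlapping. The log2 fold change was -0.05 (SE 0.09, 95% confidence interval -0.25 to 0.14, limma adjusted p = 0.76). Neither receptor passed the test, and the intervals bound any change to folds of 0.953 to 1.15 for *Nr5a1* and 0.842 to 1.10 for *Nr5a2*.

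**Figure D2:**
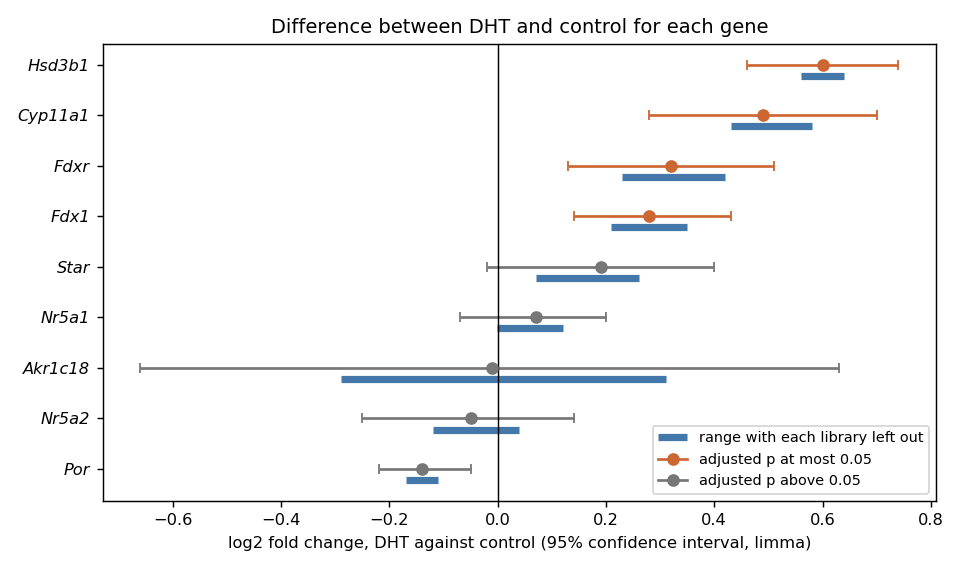
Log2 fold change of DHT against control (horizontal axis) for the 9 genes, as points with 95% confidence intervals from limma, n = 3 per group, and blue bars for the range with each library left out. *Hsd3b1*, *Cyp11a1*, *Fdxr* and *Fdx1* lie above 0 throughout, *Por* lies below 0 at -0.14, and the range of *Akr1c18* runs from -0.29 to 0.31.

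Levels of different genes were compared per exonic length, as reads per kilobase of exon, scaled to the total reads of the library (RPKM). *Hsd3b1* ranked 14 among 16259 genes in the control libraries, at 1090 ± 73.7 RPKM (SD, n = 3), and *Cyp11a1* ranked 47 at 476 ± 50.2 RPKM. *Fdx1* followed at 154 ± 13.8, *Fdxr* at 73.3 ± 9.49, *Nr5a2* at 65.4 ± 6.71, *Star* at 44.0 ± 5.97, *Nr5a1* at 34.3 ± 3.25 and *Por* at 28.3 ± 1.19 RPKM. *Akr1c18* stood far below at 1.13 ± 0.511 RPKM and ranked 11470. The transcript of the enzyme that makes progesterone was thus among the 100 most abundant per length, and that of AKR1C18 was in the lower part of the ranking.

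The order was the same in DHT, from 1620 ± 74.1 RPKM for *Hsd3b1* and 654 ± 64.8 for *Cyp11a1* down to 1.03 ± 0.0631 for *Akr1c18*. Of the neighbours in this order, *Fdxr* and *Nr5a2*, and *Star* and *Nr5a1*, had overlapping ranges of RPKM in the control libraries, and in DHT the ranges of all neighbours were apart. *Fdxr* and *Nr5a2*, close together in control, averaged 89.4 ± 3.17 and 61.7 ± 6.23 RPKM in DHT.

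**Figure D3:**
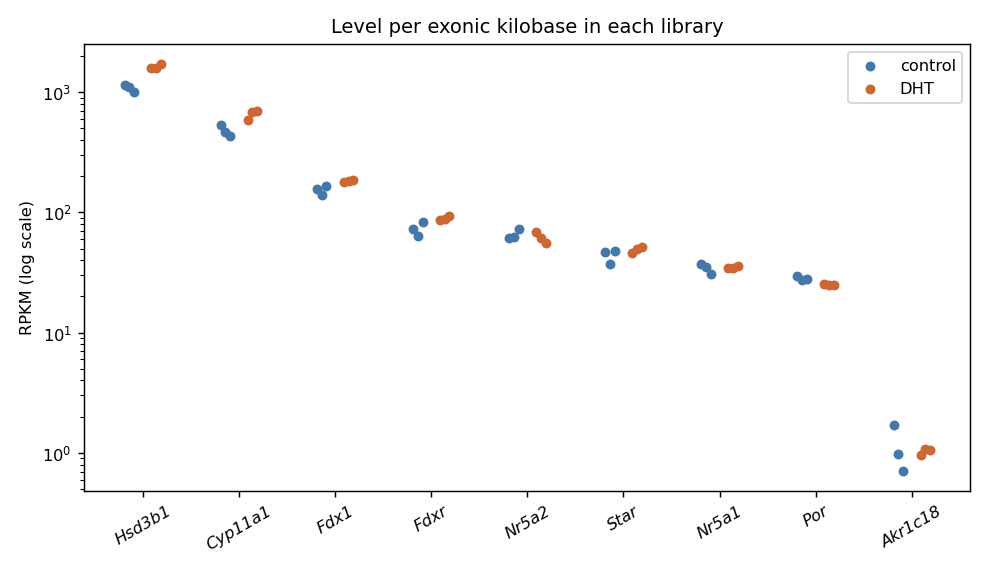
RPKM on a log scale (vertical axis) in each control and DHT library, with genes in order of their control mean. The order from *Hsd3b1*, at 1620 RPKM in DHT, to *Akr1c18*, near 1 RPKM, is the same in both groups.

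Together the 9 genes took 0.619%, 0.568% and 0.556% of all reads in control, and the share in DHT was 0.734%, 0.782% and 0.816%. The groups were apart, with means of 0.581% ± 0.0334 and 0.777% ± 0.0414 (SD, n = 3 each). The two-sided exact permutation p was 0.1, the smallest that 3 against 3 libraries allow. *Hsd3b1* rose from 0.202% to 0.30% of reads and *Cyp11a1* from 0.229% to 0.314%, so these carried nearly all of the gain.

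Ratios within a library show how members stood to each other independently of depth. The log2 ratio of *Cyp11a1* to *Star* was 3.73, 3.87 and 3.39 in control and 3.89, 4.0 and 4.0 in DHT. The ranges were apart by a small margin (difference 0.30, two-sided exact permutation p = 0.1), and without control replicate 3 the difference was 0.17. For *Hsd3b1* to *Akr1c18*, synthesis against inactivation, it was 10, 10.73 and 11.04 in control and 11.27, 11.11 and 11.25 in DHT, also apart (difference 0.62, exact permutation p = 0.1). The standard deviation of this ratio was 0.54 in control and 0.09 in DHT, and without control replicate 1 the difference was 0.32. The ratio of *Fdx1* to *Fdxr* was nearly constant, from 1.15 to 1.27 in all 6 libraries (difference -0.04, exact permutation p = 0.3). *Cyp11a1* to *Fdx1* overlapped between groups (difference 0.21, exact permutation p = 0.3, and 0.08 without control replicate 3). The ratio of *Nr5a1* to *Nr5a2* also overlapped, at -1.18, -1.32 and -1.72 in control and -1.45, -1.30 and -1.10 in DHT (difference 0.12, exact permutation p = 0.6, with -0.04 to 0.23 when each library was left out). Adjustment over the ratios cannot bring any p below 0.1.

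**Figure D4:**
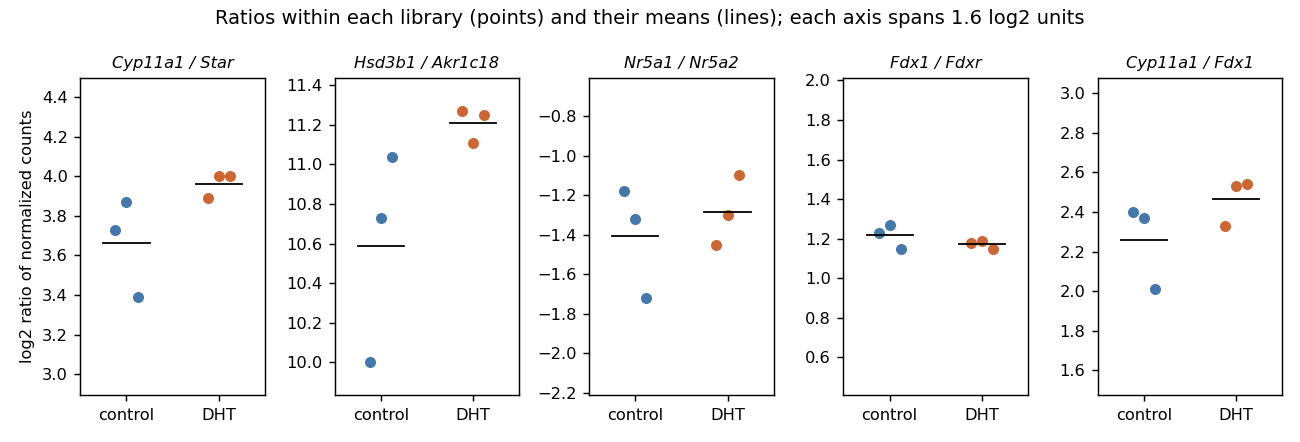
Log2 ratios of normalized counts (vertical axes, each spanning 1.6 log2 units) for 5 pairs of genes within each library, with points for libraries and lines for group means. *Cyp11a1* to *Star* and *Hsd3b1* to *Akr1c18* stand apart between groups, and *Fdx1* to *Fdxr* stays between 1.15 and 1.27.

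The members varied more between the control libraries than between the DHT libraries in 8 of 9 cases, *Cyp11a1* being the exception, on the log2 scale. The same held for 58.3% of all genes tested. Among 11625 genes with a mean of at least 100 normalized counts, the profile of *Cyp11a1* over the 6 libraries was most like that of *Mcat* (Pearson r = 0.999), *Sypl* (0.996) and *Tg* (0.996). That of *Star* was most like *Lamb2* (r = 0.99), and that of *Nr5a1* most like *Tbccd1* (r = 0.988). With 6 libraries, 2 groups and so many genes compared, such values describe the libraries only.

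Of 15 genes for cholesterol delivery to mitochondria and the turnover of StAR, 5 rose (33.3%, against 6.52% of all genes) and 0 fell by limma, edgeR and DESeq2, and the median log2 fold change of the list was 0.03. At an unadjusted p below 0.05, 2 of the 15 were lower. The risers were *Stard4*, a cytosolic sterol carrier, which went from 1391 ± 216 to 2494 ± 114 normalized counts (log2 fold change 0.85, limma adjusted p = 0.00088), *Stard5* (0.51, limma adjusted p = 0.03), *Dbi*, the acyl-CoA binding protein that also binds the mitochondrial translocator protein (0.41, limma adjusted p = 0.00027), the lysosomal cholesterol carrier *Npc2* (0.20, limma adjusted p = 0.05) and *Lonp1*, the mitochondrial protease that degrades StAR (0.19, limma adjusted p = 0.015). The 10 others did not pass the test, among them the abundant porins *Vdac1* (-0.08) and *Vdac2* (-0.14). Without DHT replicate 2 or DHT replicate 3 the calls of *Stard5*, *Npc2* and *Lonp1* were lost, with adjusted p by limma of up to 0.12, 0.18 and 0.077. *Stard5* also lost its call without control replicate 2, and *Npc2* without any 1 of the 3 controls. Without the intensity trend *Stard5*, *Npc2* and *Lonp1* did not pass either (limma adjusted p = 0.14, 0.17 and 0.086).

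Other steroid-metabolizing enzymes also differed between groups. Of 4 further AKR1C genes, 2 rose (50.0%, against 6.52% of all genes) and 0 fell by limma, edgeR and DESeq2, or at an unadjusted p below 0.05, with a list median of 0.08. *Akr1cl* went from 46151 ± 2400 to 65255 ± 4630 normalized counts (log2 fold change 0.50, limma adjusted p = 0.0014). *Akr1c14*, a 3α-hydroxysteroid dehydrogenase that reduces DHT and dihydroprogesterone, went from 34664 ± 1680 to 45225 ± 3420 (0.38, limma adjusted p = 0.0049, and 0.053 without the intensity trend). Their control levels of 285 and 278 RPKM compare with the 1.13 RPKM of *Akr1c18*. Of 3 analysed genes of the 5α-reductase and 11β-hydroxysteroid dehydrogenase families, 1 rose (33.3%, against 6.52% of all genes) and 0 fell. The same counts came from edgeR and DESeq2, and at an unadjusted p below 0.05, 2 were higher. The riser was *Hsd11b2*, whose enzyme inactivates glucocorticoids and is not a progesterone-converting enzyme. It went from 590 ± 180 to 1112 ± 181 counts (0.95, limma adjusted p = 0.023). The limma adjusted p was up to 0.1 without DHT replicate 2 or 3, and 0.12 without the intensity trend. *Srd5a1*, a 5α-reductase, went from 289 ± 18.3 to 345 ± 17.0 (0.26, limma adjusted p = 0.088), with the groups apart. The list median was 0.26. The 2 other 3β-HSD genes analysed did not pass the test by limma, edgeR or DESeq2, or at an unadjusted p below 0.05, with a list median of -0.1, and *Hsd3b6* had 24.8 ± 7.99 counts in control and 26.2 ± 8.49 in DHT. No stretch of 100 bases of any *Hsd3b1* transcript recurred in another gene's transcripts. For *Cyp11a1*, 0.959% of such stretches recurred, all in *Gm17322*.

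Of 15 P450s and other enzymes that take electrons from POR, 5 rose (33.3%, against 6.52% of all genes) and 1 fell (6.67%, near the 4.66% of all genes), with a list median of 0.04. *Cyp51*, *Sqle* and *Dhcr7* are enzymes of cholesterol synthesis, with log2 fold changes of 1.07, 0.82 and 0.74 (limma adjusted p = 3e-05, 6.3e-05 and 8.9e-05). *Cyp2u1* (0.53) and *Cyp1b1* (0.45) rose too, *Cyp1b1* without a call where DHT replicate 3 was left out (limma adjusted p = 0.06). *Cyp1b1* was also not called without the intensity trend (limma adjusted p = 0.091). *Hmox1*, which degrades heme, fell from 10885 ± 1300 to 4668 ± 25.2 counts (log2 fold change -1.21, limma adjusted p = 4.9e-05). Of 7 other electron transfer proteins, 1 rose (14.3%, against 6.52% of all genes) and 1 fell (14.3%, against 4.66%). The 5 others did not pass the test. *Cyb5a*, the microsomal cytochrome b5, fell from 12941 ± 1130 to 7708 ± 264 counts (-0.74, limma adjusted p = 0.00015). *Cyb5b*, its mitochondrial counterpart, rose from 10892 ± 276 to 13009 ± 169 (0.26, limma adjusted p = 0.0021). The list median was -0.01. The 2 other analysed mitochondrial P450s that depend on ferredoxin did not pass any of the 3 tests and had at most 100 counts on average.

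Among 35 transcription factors and corepressors known to act on steroidogenic genes, 2 rose (5.71%, against 6.52% of all genes) and 4 fell (11.4%, against 4.66%), with a list median of -0.01. DESeq2 called 3 higher and 3 lower. The share that rose was thus near that of all genes. *Runx1* (log2 fold change 0.42, limma adjusted p = 0.0077) and *Cebpb* (0.32, limma adjusted p = 0.0038), both of which are induced in GCs at ovulation, were higher. *Foxo1*, a factor of proliferating GCs (-0.22, limma adjusted p = 0.03), *Gata4* (-0.21, limma adjusted p = 0.027), the corepressor *Nrip1* (-0.21, limma adjusted p = 0.037) and *Foxl2* (-0.15, limma adjusted p = 0.049) were lower. The falls of *Foxo1*, *Gata4*, *Nrip1* and *Foxl2* each lost their call when any 1 of the 3 DHT libraries was left out, with adjusted p by limma of up to 0.11, 0.097, 0.12 and 0.14. All 4 also lost it without control replicate 2 and, *Gata4* excepted, without control replicate 1, so they were called in 1, 2, 1 and 1 of 6 such fits. DESeq2 did not call *Foxl2* (adjusted p = 0.077). *Runx1* and *Cebpb* kept theirs in 6 of 6 such fits, but without the intensity trend *Runx1* did not pass (limma adjusted p = 0.074). *Foxo1*, *Gata4*, *Nrip1* and *Foxl2* did not pass there either (limma adjusted p = 0.13, 0.12, 0.14 and 0.13).

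Of 13 receptors for the hormones of the follicle and corpus luteum, 4 rose (30.8%, against 6.52% of all genes) and 3 fell (23.1%, against 4.66%), with a list median of 0.08. *Prlr*, the receptor of luteotropic prolactin, went from 3952 ± 450 to 7467 ± 520 counts (log2 fold change 0.92, limma adjusted p = 0.0002). *Ptgfr*, the receptor of the luteolytic prostaglandin F2α, rose by 1.95 from a variable control level of 107 to 699 counts (limma adjusted p = 0.048). It kept its call in 1 of 6 fits with a library left out, the one without control replicate 3. The log2 fold change was 2.68 there and 1.33 without control replicate 2. By edgeR and DESeq2 it was 1.54 and 1.55 (adjusted p = 0.08 and 0.19), and without the intensity trend the limma adjusted p was 0.18. *Ghr* rose by 0.44 (limma adjusted p = 0.0017). The progesterone receptor gene *Pgr* was scarce and fell from 27.8 ± 3.33 to 9.83 ± 1.85 counts (-1.42, limma adjusted p = 0.01). The membrane components *Pgrmc1* (-0.38, limma adjusted p = 0.0081, and 0.074 without the intensity trend) and *Pgrmc2* (0.33, limma adjusted p = 0.0021) moved in opposite directions, and the estrogen receptor *Esr2* fell by 0.36 on the log2 scale (limma adjusted p = 0.0015).

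**Figure D5:**
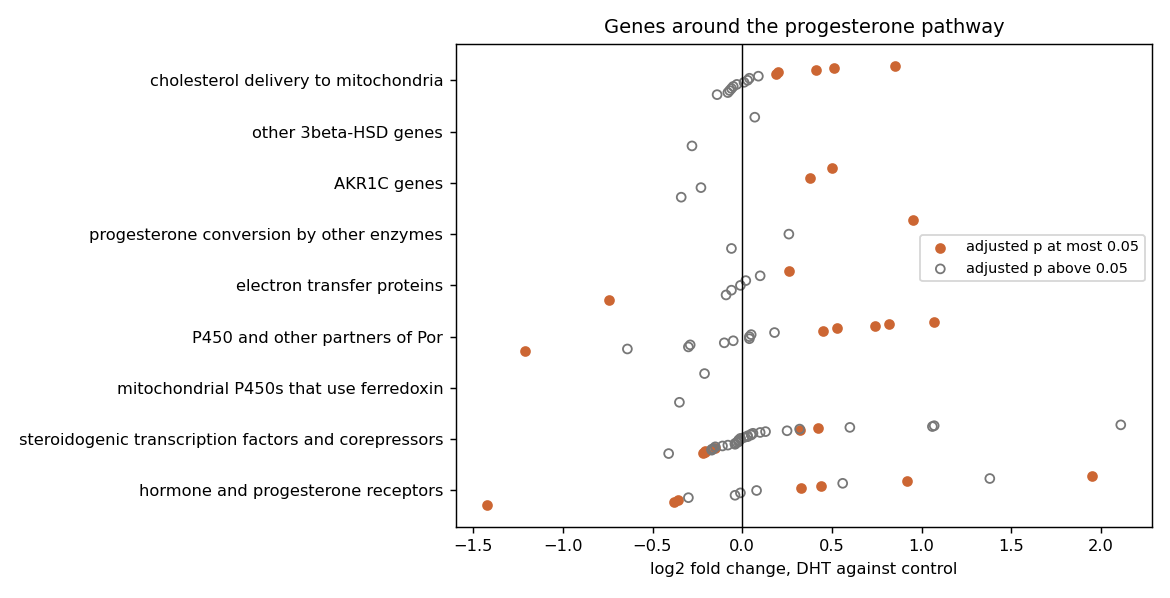
Log2 fold change of DHT against control (horizontal axis) for the genes of 9 lists around the pathway, 1 point per gene, filled where the adjusted p by limma was at most 0.05. The filled points run from -1.42 for *Pgr* to 1.95 for *Ptgfr*, and the list medians lie between -0.28 and 0.26.

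Markers of other cell types were measured beside these results. In bulk RNA fewer cells of a type and less RNA per cell cannot be told apart. The aromatase gene *Cyp19a1* was not among the granulosa markers analysed here. Of 13 granulosa markers, 2 rose (*Serpine2*, *Hsd17b1*), which is 15.4% against 6.52% of all genes, and 3 fell (*Kitl*, *Inha*, *Foxl2*), which is 23.1% against 4.66%. Their list median was -0.04, and their summed level was 255464 to 285328 normalized counts in control and 272017 to 287373 in DHT. Of 5 luteal markers, 4 rose by limma (*Ptgfr*, *Prlr*, *Sfrp4*, *Hsd17b7*; 80.0%, against 6.52% of all genes) and 3 by edgeR, which did not call *Ptgfr*. The list median was 0.92, and the summed level, mostly *Sfrp4*, went from 26455–32292 to 49432–57234. *Lhcgr*, the LH receptor, had 36.2 ± 26.1 counts in control and 79.5 ± 14.4 in DHT (log2 fold change 1.38, limma adjusted p = 0.11). DESeq2 called it higher (1.13, adjusted p = 0.039), as did limma without control replicate 3 (1.92, adjusted p = 0.01), and without control replicate 2 limma gave 0.77. Of 10 stroma and smooth muscle markers, 3 smooth muscle genes rose (*Acta2*, *Myh11*, *Cnn1*), which is 30% against 6.52% of all genes, with sums over the list of 8659 to 12442 in control and 13815 to 16332 in DHT, mostly from *Acta2* and *Tagln*. Of the 5 stroma genes of the list, 4 had negative log2 fold changes, from -1.05 to -0.13, and *Col1a2* had 0.30, with 0 past the test in limma, edgeR or DESeq2 and 1 lower at an unadjusted p below 0.05. *Serpine2*, *Myh11* and *Cnn1* lost their calls without DHT replicate 2 or 3. *Serpine2* also lost its call without DHT replicate 1 and with quantile normalization (0.27, limma adjusted p = 0.1), and *Cnn1*, called in 1 of 6 such fits, also without control replicate 1, control replicate 3 or DHT replicate 1. Without the intensity trend *Hsd17b1*, *Acta2*, *Serpine2*, *Foxl2*, *Ptgfr*, *Myh11* and *Cnn1* lost theirs. Their adjusted p by limma was then 0.059, 0.066, 0.12, 0.13, 0.18, 0.072 and 0.081, in that order. The part of the luteal and smooth muscle markers in the rise of the progesterone genes was not tested.

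Of 6 theca markers 0 passed the test in limma, while 1 was lower by edgeR, 2 were lower and 1 higher by DESeq2, and 3 were lower and 1 higher at an unadjusted p below 0.05. Over 16300 genes edgeR called 746 lower, and DESeq2 called 805 lower and 1122 higher. The 6 theca markers had summed levels of 138853 to 160249 in control and 127165 to 129650 in DHT, nearly all from *Aldh1a1*. This gene had 772 RPKM in control, against 4.66 for *Ptch1*, the next highest of the 6, so the sum follows 1 gene. The theca genes *Cyp17a1* and *Insl3* were not analysed here. Of 4 endothelial and 9 oocyte markers, 0 passed the test in limma, edgeR or DESeq2, or had an unadjusted p below 0.05. Endothelial markers summed to 150 to 179 and 141 to 199 counts, and immune markers to 504 to 592 and 409 to 647, with *Csf1r* lower in DHT (limma adjusted p = 0.027, and up to 0.1 without control replicate 1 or DHT replicate 2 or 3). Oocyte markers summed to 394 to 922 in control and 109 to 727 in DHT, and *Zp3*, *Oosp1* and *Dppa3* were at 0 in at least 1 DHT library. Total reads on genes ranged from 38486526 to 41928585 among controls and from 36111177 to 39777305 under DHT.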

How the data were processed

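RNA-seq was done on 6 libraries, grouped by the treatment that the labels give. The authors trimmed reads with Trimmomatic 0.36, aligned them to GRCm38 (STAR 2.5.2b) and assigned uniquely mapped exonic reads to genes (Subread 1.5.2). The strand setting and annotation release are not given in the sources used here. The signal that the authors deposited is a normalized count, reads divided by a DESeq2 size factor. Whole reads were recovered for 100% of values in each library within 0.001 read. Deposited fold changes and p-values were not used.

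Values were analysed as log2(value + 1) in limma 3.58.1 (R 4.3.3), letting the prior variance follow intensity. Tested were 16292 genes whose mean normalized count reached 10, with Benjamini-Hochberg adjustment over all of them. The scale understates changes of low genes. Ratios and read shares were tested by exact permutation, whose smallest p was 0.1. RPKM was computed here from recovered reads and exonic lengths of GENCODE vM21. Windows of 100 bases were matched between transcripts. Rows without a gene name took at most 0.00728% of reads. Intervals cover the spread between 3 libraries per group. Replicates of a group differed by more than sampling noise.

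Alternatives were pseudocounts of 0.5 and 8, no filter or a mean of 50 or more, TMM scaling, quantile normalization, a constant prior variance in place of the intensity trend, pairing by replicate number, edgeR 4.0.16 and DESeq2 1.42.0 on the recovered reads, and each library left out in turn. Scripts were tested on simulated data. From each list the text names at most 4 called genes with the largest change and at most 4 with the highest level. *Cyp2u1*, *Foxl2*, *Lhcgr*, *Zp3*, *Oosp1*, *Dppa3* and *Gm17322* were added after their values were seen. *Cyp17a1*, *Insl3* and *Cyp19a1* are named only as not analysed. The 9 genes and all lists were chosen with earlier results of these data known.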

Additional observations from a re-analysis of the deposited data

How the results depend on the processing

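*Hsd3b1* was called under all 10 other settings, with log2 fold changes of 0.41 to 0.61. Without the intensity trend *Cyp11a1* (0.49, limma adjusted p = 0.073), *Fdx1* (0.28, limma adjusted p = 0.12) and *Fdxr* (0.32, limma adjusted p = 0.16) lost their calls, which left 1 member higher, and 501 genes were called higher and 303 lower over all. *Por* was called with a mean of at least 50 (-0.14) and with quantile normalization (-0.15), which made 1 member lower. Quantile normalization lowered *Cyp11a1* to 0.35. The replicate block, in which libraries that share a number are paired, called 633 genes higher and 357 lower and changed no member's call. Deviations of same-numbered libraries correlated at 0.00583, 0.0666 and -0.238, beside a mean of 0.0278 for different numbers. No sign of pairing by number was seen, but 3 libraries per group cannot exclude it.

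With each library left out, log2 fold changes ran from 0.07 to 0.26 for *Star*, 0.43 to 0.58 for *Cyp11a1*, 0.21 to 0.35 for *Fdx1*, 0.23 to 0.42 for *Fdxr*, -0.17 to -0.11 for *Por*, -0.002 to 0.12 for *Nr5a1*, -0.12 to 0.04 for *Nr5a2*, -0.29 to 0.31 for *Akr1c18* and -0.18 to 0.36 for *Hsd3b6*. The ratio of *Nr5a1* to *Nr5a2* reached -0.04. Between 1 and 4 members were called higher and 0 to 1 lower, and 586 to 1240 genes higher and 351 to 863 lower over all, lowest without DHT replicate 2 or 3. The lone pair left in a group is assumed to vary like the other. Of 718 further values for other named genes, 627 kept direction and call, 85 lost the call, 3 gained one and 3 turned. The causes were not tested. Whether depth limits any of these values was not tested.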
